A study of Homo sapiens with 12 samples.

Results

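The Krüppel-like factors (KLFs) are a family of zinc finger transcription factors, and 10 of their genes were followed in HK-2, an immortalised line of human proximal tubule epithelium. The genes were KLF2, KLF3, KLF4, KLF5, KLF6, KLF7, KLF9, KLF10, KLF11 and KLF13, taken by name from a deposited expression table of 35238 genes that held 18 KLF genes in all. The table came from bulk RNA sequencing of polyadenylated RNA in 12 libraries, 4 groups with 3 replicates each. Every group was transfected with 10 nM of a short interfering RNA (siRNA) and held for 24 hours in vehicle or toxin. The SCR groups received a scrambled siRNA, and the siB groups received siRNA B against POLR2A, which encodes RPB1, the catalytic subunit of RNA polymerase II. Within each siRNA, 1 group had the solvent dimethyl sulfoxide (DMSO) alone and 1 had aristolochic acid I (AAI) at 25 µM, a toxin of plant origin that damages the proximal tubule. The model was 1 cell line and 1 siRNA sequence, and the labels do not say whether replicates were separate cultures, so p-values measure the spread between these libraries, which may be technical. Of 12 proximal tubule markers, 3 (SLC34A1, SLC5A2 and GGT1) had a mean of at least 1 CPM (counts scaled to a library total of 1000000 reads), while SLC22A6 and SLC22A8 were at or under the detection floor in every library, and 7 of 8 general kidney epithelial markers had a mean of at least 1 CPM.

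KLF proteins share a run of zinc fingers at the end of the protein that binds GC-rich DNA and CACCC boxes, and they differ in the rest of the protein, which recruits activating or repressing partners. KLF2, KLF4, KLF5, KLF6 and KLF7 are best known as activators, although KLF4 and KLF5 also repress. KLF3 recruits the corepressor CtBP, and KLF9, KLF10, KLF11 and KLF13 recruit the corepressor SIN3A. In the kidney, KLF6 is known as an early response gene of tubule injury, and it was followed by the study as a candidate regulator of POLR2A. The levels below ask how the whole family stood in AAI-treated cells and in cells with less POLR2A messenger RNA.

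Sequence upstream of the annotated start was read for the members from the RefSeq promoter table (GRCh38.p14), which matched 8 members, all but KLF3 and KLF10, with 13 windows. The stretch printed is the part of the 250 bases before a start that lies outside exons of GENCODE release 44. It is given for KLF4, the member that rose in both AAI comparisons, for KLF13, a member that was lower with knockdown in AAI-treated cells, for KLF6, the member with the highest level in SCR cells in DMSO, and for POLR2A, the knockdown target. The capitals mark every CACCC or GGGCGG (GC box), read on either strand, so a box of the opposite strand appears as GGGTG or CCGCCC.
KLF4 (chr9:107489770-107490019, minus strand): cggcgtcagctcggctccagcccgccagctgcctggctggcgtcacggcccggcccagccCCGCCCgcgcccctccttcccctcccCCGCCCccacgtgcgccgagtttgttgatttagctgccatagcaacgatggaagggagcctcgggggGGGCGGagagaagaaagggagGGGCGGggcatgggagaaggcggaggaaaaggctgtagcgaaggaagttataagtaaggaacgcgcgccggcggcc
KLF13 (chr15:31326585-31326834, plus strand): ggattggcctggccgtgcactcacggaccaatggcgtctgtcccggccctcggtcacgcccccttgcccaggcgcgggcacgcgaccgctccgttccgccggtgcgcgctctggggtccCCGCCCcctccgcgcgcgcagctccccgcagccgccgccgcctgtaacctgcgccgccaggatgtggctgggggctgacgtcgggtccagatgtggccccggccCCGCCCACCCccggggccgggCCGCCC
KLF6 (chr10:3785282-3785459, minus strand): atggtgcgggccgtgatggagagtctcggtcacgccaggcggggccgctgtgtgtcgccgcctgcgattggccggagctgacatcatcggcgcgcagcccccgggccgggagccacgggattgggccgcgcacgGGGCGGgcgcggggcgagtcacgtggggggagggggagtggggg
POLR2A (chr17:7484116-7484365, plus strand): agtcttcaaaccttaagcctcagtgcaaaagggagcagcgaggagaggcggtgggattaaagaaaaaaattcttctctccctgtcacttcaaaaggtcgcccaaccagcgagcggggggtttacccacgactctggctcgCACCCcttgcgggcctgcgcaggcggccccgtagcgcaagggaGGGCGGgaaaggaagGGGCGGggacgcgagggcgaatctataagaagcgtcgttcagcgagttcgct

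These windows were rich in G and C, with 69.2% in KLF4, 78.8% in KLF13 and 72.4% in KLF6 over the full 250 bases, against 59.6% in POLR2A and a median of 58.0% over all 35116 windows of the table. The KLF4 window lies inside the GENCODE span of the gene, which reaches further upstream, and KLF4 held 4 GC boxes and no CACCC box, between 76 and 190 bases before its start. KLF13 held 3 GC boxes and 1 CACCC box, and the CACCC box overlapped the GC box that began 27 bases before the start. KLF6 held 2 GC boxes, of which the one 116 bases before the start lies in the printed stretch. POLR2A held 2 GC boxes, 52 and 67 bases before its start, and 1 CACCC box 110 bases before it. Among members with a window, GC boxes were found in 7 of 8 (KLF2, KLF4, KLF5, KLF6, KLF7, KLF11 and KLF13), or 8 of 13 windows, and 42.6% of all windows held one. The CACCC box was found in 4 of 8 members (KLF5, KLF7, KLF11 and KLF13), or 6 of 13 windows, and in 54.7% of all windows. The motif TGANTCA, bound by AP-1 factors, was in 0 of 13 member windows and in 6.57% of all windows. The KLF9 window, at 32.4% G and C, held none of these motifs. A match of letters is no measured binding site.

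**Figure D1:**
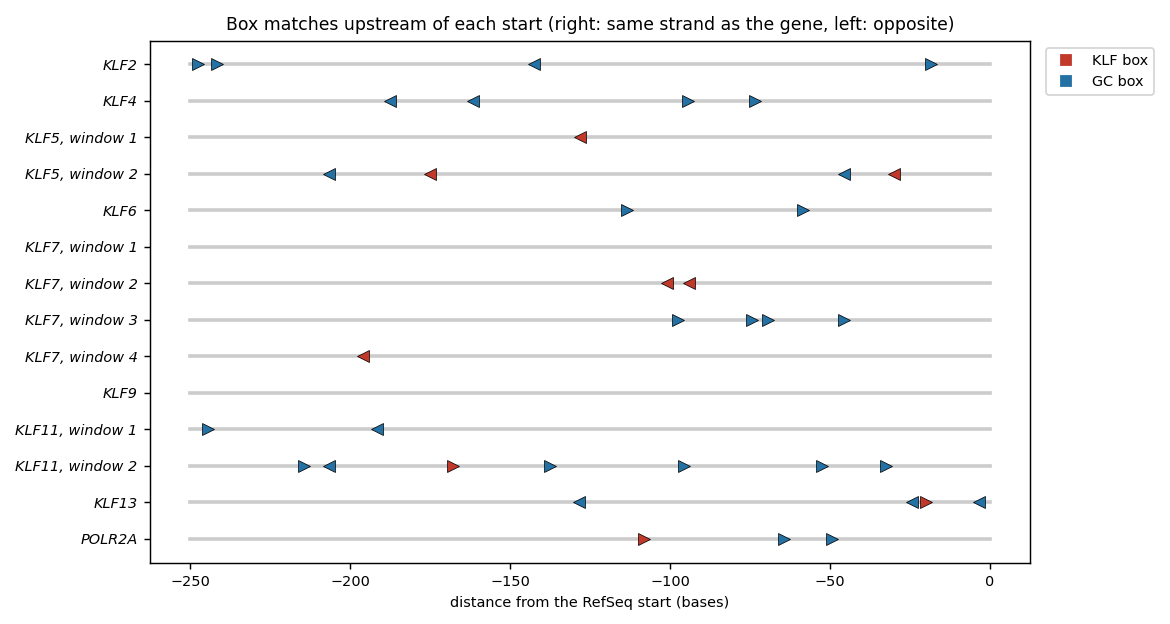
Matches of the CACCC box (red, labelled KLF box) and the GC box (blue) in the 250 bases before each RefSeq start, by distance from the start in bases, for 8 members and POLR2A. Triangles pointing right are on the strand of the gene and triangles pointing left on the opposite one. The windows of KLF4, KLF7 and KLF11 lie inside the GENCODE spans of their genes, as does the downstream window of KLF5. The downstream window of KLF11 held 6 GC boxes, and the KLF9 window held no match.

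Depth ran from 15844015 to 42805294 reads per library, so the floor of 3 reads lay between 0.0701 and 0.189 CPM, and such floors cover counting error only. SCR DMSO replicate 2 stood apart from its group, at -62.2 on the second principal component (18.3% of the variance) against 57.8 and 20.03 for replicates 1 and 3. POLR2A, the target, was measured at 258, 288 and 306 CPM under DMSO with the scrambled siRNA and at 138, 143 and 139 with siRNA B. Under AAI the SCR libraries gave 673, 719 and 729 CPM and the siB libraries 266, 220 and 210. Each siB group lay below its SCR group without overlap, as the labels have it. Summed endothelial markers were 5.09 to 8.14 CPM in siB AAI and 1.66 to 3.28 CPM in the other groups, summed distal tubule markers were 8.95 to 9.91 CPM against 0.390 to 2.60 CPM, and summed fibroblast markers were 13.2 to 24.9 CPM against 22.5 to 54.1 CPM, where the SCR AAI libraries overlapped those of siB AAI. PECAM1 was the 1 endothelial marker of 5, and SLC12A3 the 1 distal tubule marker of 5, with a mean of at least 1 CPM. Summed proximal tubule markers in siB AAI were 146 to 149 CPM, inside the 112 to 194 CPM of the other groups. Summed leukocyte markers, at 70.1 to 76.7 CPM, were inside 60.6 to 98.4 CPM. Summed kidney epithelial markers were lowest in siB AAI, at 1366 to 1430 CPM against 1518 to 1915 CPM in the other groups. The part of these markers in the results on the family was not tested.

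All 10 members passed the filter on low values in every comparison, and 9 of them had at least 1 CPM in all 12 libraries. Levels of different genes are compared per kb of the canonical transcript. In SCR cells in DMSO the order from high to low was KLF6, KLF10, KLF11, KLF5, KLF3, KLF13, KLF7, KLF2, KLF4 and KLF9, with KLF6 at 39.8 ± 4.71 CPM per kb (SD, n = 3), KLF10 at 20.5 ± 5.49 and KLF9 at 0.223 ± 0.110. The libraries of KLF6 lay above those of KLF10, and those of KLF4 above those of KLF9, and every other pair of neighbours in that order overlapped. In siB cells in AAI, KLF10 (31.3 ± 3.51 CPM per kb) came before KLF6 (23.4 ± 5.56), although their ranges overlapped. KLF4 moved from place 9 to place 6 and KLF7 from place 7 to place 9, and they held these new places in SCR cells in AAI as well. KLF9 was last in all 4 groups. The order covers the 10 members alone: KLF16, a KLF gene outside them, was at 25.3 ± 13.8 CPM per kb in SCR DMSO and 37.7 ± 11.3 in SCR AAI, and KLF15 at 10.2 ± 11.8 and 19.5 ± 22.5.

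The summed level of the 10 members, and the share of each in it, leave out the other KLF genes. The 10 members together gave 109 ± 19.5 CPM per kb with SCR DMSO, 116 ± 19.2 with SCR AAI, 115 ± 12.5 with siB DMSO and 95.5 ± 5.56 with siB AAI (SD, n = 3). KLF6 took 34.7% to 39.9% of that sum in SCR DMSO libraries, 25.1% to 36.2% in SCR AAI, 30.6% to 33.0% in siB DMSO and 19.3% to 28.6% in siB AAI. KLF10 took 16.5% to 21.7% in SCR DMSO, 22.6% to 25.3% in SCR AAI, 24.3% to 26.0% in siB DMSO and 31.1% to 34.9% in siB AAI. The share of KLF4 was 0.659% to 1.32% in SCR DMSO and 3.40% to 4.92% over the 6 AAI libraries. These shares are a description of the libraries and were not tested.

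**Figure D2:**
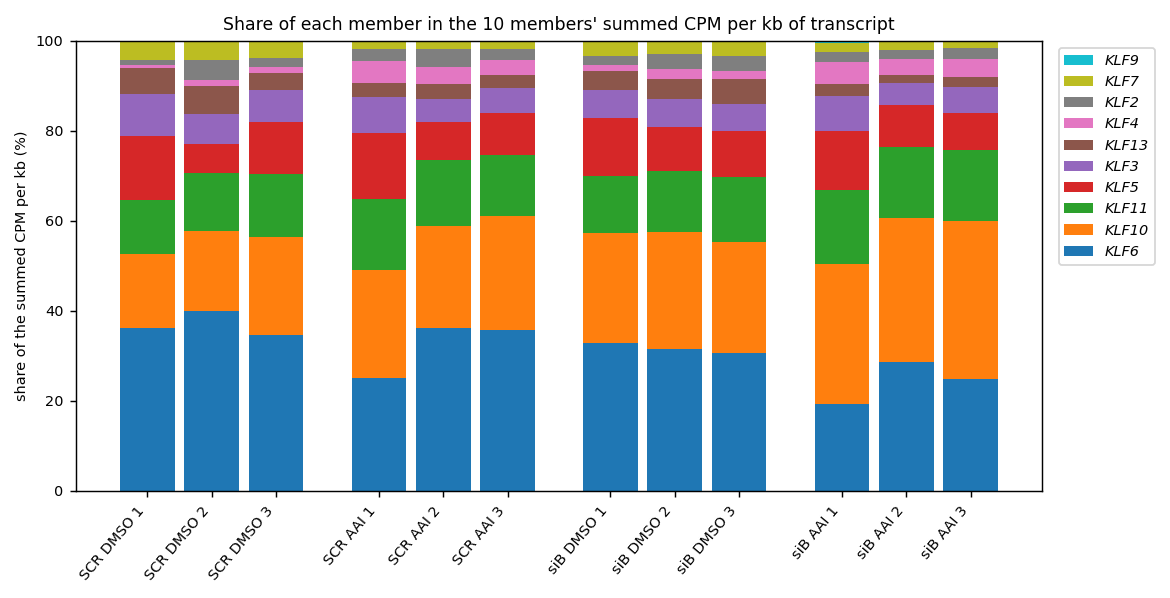
Share of each member in the summed CPM per kb of transcript of the 10 members (percent, stacked to 100), for each of the 12 libraries. KLF6 (blue) took less of the sum in the siB AAI libraries, 19.3% to 28.6%, than in the SCR DMSO libraries, 34.7% to 39.9%, and KLF10 (orange) took more.

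Changes were tested with limma on log2(CPM + 1) over all genes past the filter, and a gene was counted as higher or lower at a Benjamini-Hochberg adjusted p under 0.05. Log2 changes are on that scale and understate the change of genes with low CPM. In SCR cells, AAI against DMSO asked how the family responded to injury. There, 1 member was higher (KLF4) and 1 was lower (KLF7), against 8.98% and 3.36% of 14228 genes tested, and the median change was 0.06 over the members and 0.18 over all genes. Same-numbered replicates deviated together here, and with the replicate number as a block the same members passed, against 14.7% and 6.4% of genes. In siB cells the same treatment gave 1 higher member (KLF4) and 4 lower members (KLF2, KLF6, KLF7 and KLF13), against 30.4% and 21.8% of 14928 genes, with medians of -0.34 and 0.10. With siB against SCR in AAI-treated cells, the knockdown in injured cells, 0 members were higher and 1 was lower (KLF13), against 5.49% and 3.79% of 14946 genes, with medians of -0.25 and 0.00228. Same-numbered replicates deviated together in that comparison also, and with the block 3 members were lower (KLF2, KLF6 and KLF13) and 0 higher, against 13.8% of genes lower and 15.2% higher. That block fit leaves few degrees of freedom per gene. With adjusted p-values down to 2.1e-40 over all genes, it leans on a variance pooled over genes, so its p-values are read beside those without the block. With siB against SCR in DMSO, the knockdown without injury, 0 members passed, as did 0% of 13606 genes. POLR2A itself did not pass there (-1.01, SE 0.13, adjusted p 0.505, 0.0271 to 1.0 over 15 alternatives), although its libraries did not overlap, so that count does not show that members were unchanged. At an unadjusted p under 0.05 that last comparison held 1 member, KLF4, and 644 genes, and voom on recovered reads also called 0 genes there. The interaction of siRNA and AAI, which asks whether the response to AAI differed between siB and SCR cells, passed in 0 members and in 1.61% of 15325 genes, while 3 members (KLF2, KLF4 and KLF13) had an unadjusted p under 0.05. Voom called 0 genes for the interaction where limma with a trend called 247. The comparisons share groups of libraries, so their counts are not independent of each other. CPM is a share of a library, and median-ratio rescaling moved the median of all genes from 0.18 to -0.01 with AAI in SCR cells, where the genes called higher and lower went from 1277 and 478 to 1064 and 809, and from 0.10 to -0.01 in siB cells. After it, the SCR changes were 1.54 for KLF4 and -1.27 for KLF7, and both passed still. In bulk RNA, fewer cells that express a gene and less of its RNA per cell cannot be told apart.

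**Figure D3:**
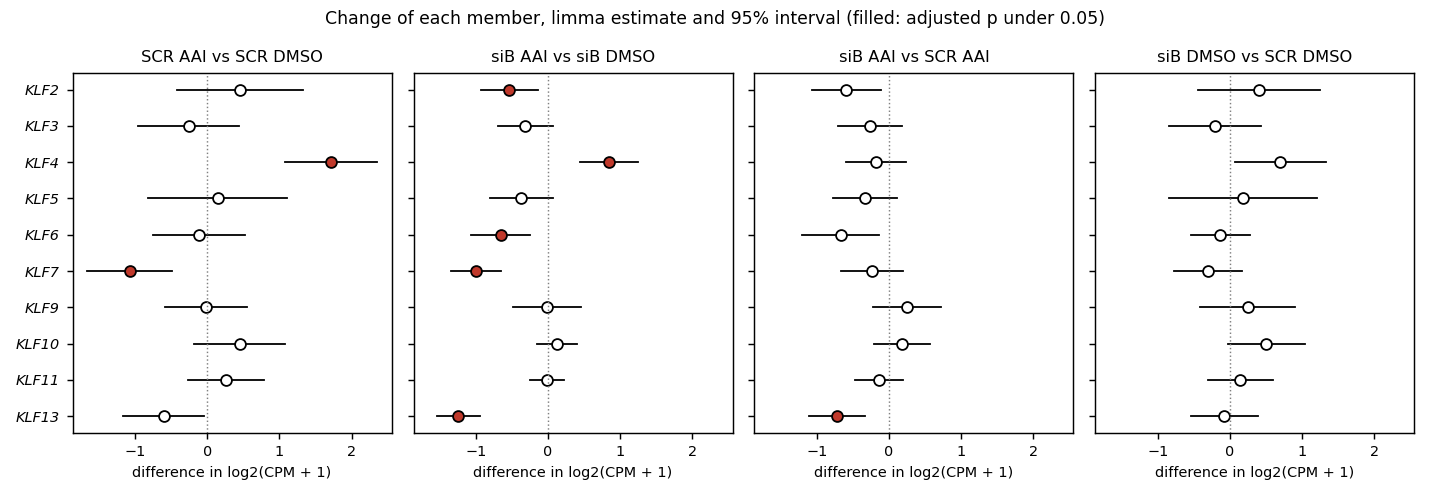
Difference in log2(CPM + 1) of each member in the 4 pairwise comparisons (points, limma estimates from 3 against 3 libraries) with 95% intervals (lines). Filled points passed an adjusted p under 0.05, namely KLF4 and KLF7 in SCR cells with AAI, KLF2, KLF4, KLF6, KLF7 and KLF13 in siB cells with AAI, and KLF13 in siB against SCR cells with AAI, in fits without a replicate block; with it KLF2 and KLF6 passed in the last as well.

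The spread of single libraries was read beside these tests. In SCR cells the AAI and DMSO libraries did not overlap for 3 members (KLF4 higher, KLF7 and KLF13 lower), and 33.8% of genes did not overlap. In siB cells they did not overlap for 5 members (KLF4 higher, KLF2, KLF6, KLF7 and KLF13 lower), beside 60.8% of genes. In AAI-treated cells siB and SCR libraries did not overlap for KLF2 and KLF13, both lower in siB, beside 30.8% of genes, and in DMSO only for KLF4, higher in siB, beside 11.9% of genes.

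**Figure D4:**
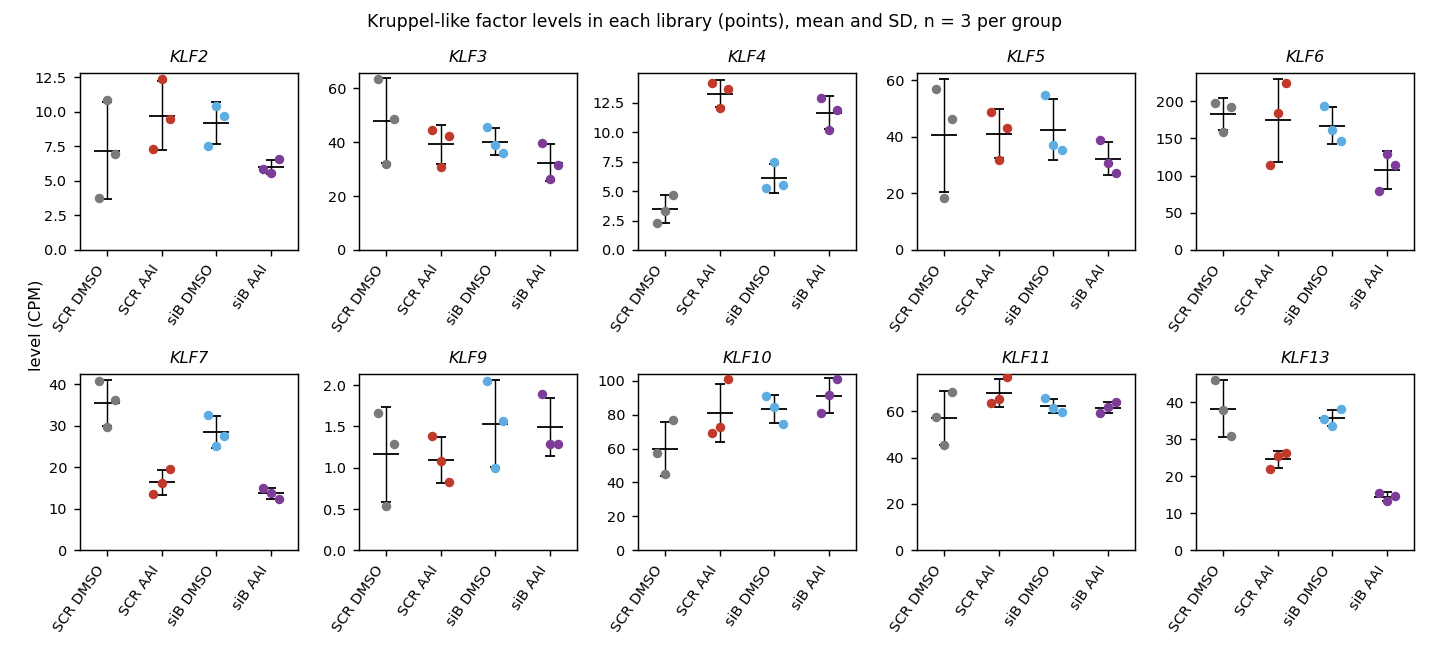
Level of each of the 10 members in CPM (vertical axis, from 0, its own scale in each panel) in the 12 libraries (points), with the group mean and SD (n = 3). KLF4 sits higher in both AAI groups than in both DMSO groups, KLF7 and KLF13 sit lower, and KLF6 is lowest in siB AAI with 1 SCR AAI library, at 115 CPM, inside the range of that group.

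Of the activators, KLF4, known as a pluripotency factor and as a stress-responsive regulator of epithelial and endothelial cells, had the largest rise of the members. Its gene spans 5.63 kb on chromosome 9 (107484852 to 107490482, minus strand). KLF4 was measured at 2.31, 3.34 and 4.67 CPM in the SCR DMSO libraries and at 14.1, 12.01 and 13.7 in those of SCR AAI. The siB libraries gave 5.26, 7.49 and 5.52 CPM under DMSO and 12.9, 10.2 and 11.9 under AAI. All 6 AAI libraries were above all 6 DMSO libraries. The rise was 1.72 on the log2 scale in SCR cells (SE 0.28, adjusted p 0.00586) and 0.84 in siB cells (SE 0.18, adjusted p 0.00375), and in both it passed under all 15 alternatives (adjusted p 1.6e-04 to 0.0376 and 0.00302 to 0.0198). Without a pseudocount that weighs on low levels, voom gave rises of 1.98 and 0.93. The 2 rises differed by -0.87 (SE 0.31, adjusted p 0.231 for the interaction, 0.119 to 0.509 over 20 alternatives), which did not pass. With AAI, siB and SCR cells differed by -0.18 (95% interval -0.59 to 0.24), and with DMSO by 0.70 (0.06 to 1.33, adjusted p 1.0).

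KLF6, the injury-response member, spans 9.29 kb on chromosome 10 (3775996 to 3785281, minus strand). It was measured at 198, 158 and 192 CPM in the SCR DMSO libraries and at 115, 183 and 225 in those of SCR AAI. The siB libraries gave 194, 162 and 146 CPM under DMSO and 79.0, 129 and 114 under AAI. The SCR AAI group reached both above and below the SCR DMSO group, and all 3 siB AAI libraries were below all 6 DMSO libraries. In SCR cells AAI changed KLF6 by -0.11 (95% interval -0.76 to 0.53, adjusted p 0.822), and by 0.16 without SCR AAI replicate 1. In siB cells KLF6 fell by 0.65 (SE 0.18, adjusted p 0.0132, 0.00503 to 0.0609 over 15 alternatives), with 0.0609 when all 4 groups were fitted together. In AAI-treated cells the difference between siB and SCR was -0.67 (SE 0.24, adjusted p 0.106). Replicates deviated together by number in that comparison, and with the replicate number as a block the same difference passed, at an adjusted p of 5.9e-05. That p-value leans on a variance pooled over genes, as given above. The difference also passed without SCR AAI replicate 1 (-0.94, adjusted p 0.00277), and its adjusted p ranged from 5.9e-05 to 0.352 over 15 alternatives. The interaction was -0.54 (SE 0.35, adjusted p 0.593).

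KLF2, known for its flow-induced, protective role in endothelium, spans 3.86 kb on chromosome 19 (16324826 to 16328685, plus strand). It was measured at 3.79, 10.8 and 6.99 CPM in the SCR DMSO libraries, 7.34, 12.4 and 9.51 with SCR AAI, 7.52, 10.5 and 9.70 with siB DMSO and 5.87, 5.58 and 6.59 with siB AAI. The siB AAI libraries were below those of SCR AAI and of siB DMSO, and inside the range of SCR DMSO. With AAI, KLF2 fell by 0.54 in siB cells (SE 0.17, adjusted p 0.0272), and lost the call in 5 alternatives, namely without siB DMSO replicate 2 (0.115), siB DMSO replicate 3 (0.0999) or siB AAI replicate 2 (0.0803), without the filter (0.0627) and with all 4 groups fitted together (0.194), in a range of 0.0112 to 0.194 over 15 alternatives. In SCR cells the change was 0.46 (95% interval -0.41 to 1.33). In AAI-treated cells siB differed from SCR by -0.59 (SE 0.22, adjusted p 0.114), which passed with the replicate block (0.00653) and without SCR AAI replicate 1 (0.0336). The interaction was -0.99 (SE 0.42, adjusted p 0.330), and 0.0436 without SCR DMSO replicate 2 (-1.31, range 0.0436 to 0.596 over 20 alternatives). The summed endothelial markers were higher in siB AAI than in the other groups, as given above. Of these markers PECAM1 alone had a mean of at least 1 CPM.

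KLF7, best known for neuronal differentiation, has a long gene, 99.7 kb on chromosome 2 (207074137 to 207173856, minus strand). KLF7 was measured at 40.8, 29.6 and 36.1 CPM in the SCR DMSO libraries and at 13.5, 16.2 and 19.5 in those of SCR AAI. The siB libraries gave 32.6, 25.1 and 27.5 CPM under DMSO and 14.9, 13.9 and 12.3 under AAI. Every AAI library was below every DMSO library. It fell by 1.07 in SCR cells (SE 0.26, adjusted p 0.0315) and by 0.997 in siB cells (SE 0.15, adjusted p 5.5e-04). The fall in siB cells passed in all 15 alternatives (8.9e-05 to 0.00436). In SCR cells it passed in 10 of 15 (0.00157 to 0.123), and the call was lost without SCR DMSO replicate 1 (0.0731), SCR DMSO replicate 3 (0.116), SCR AAI replicate 1 (0.123), replicate 2 (0.114) or replicate 3 (0.0806), each fit keeping a change of -0.95 or lower. Both falls were of similar size, with an interaction of 0.08 (95% interval -0.51 to 0.67). KLF7 shares its span with 5 other annotated genes, 3 of them on the opposite strand. Overlap of exons was not looked at and the use of strand in counting is not stated. Whether reads of these genes were counted for KLF7 is therefore not known.

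KLF5, an epithelial activator of proliferation, spans 22.6 kb on chromosome 13 (73054976 to 73077541, plus strand) and was spread widely over the SCR DMSO libraries, at 56.8, 18.3 and 46.4 CPM. The SCR AAI libraries held 48.6, 31.8 and 43.0, those of siB DMSO 54.97, 37.0 and 35.5 and those of siB AAI 38.8, 30.8 and 27.3. All 4 groups overlapped. The low value was in SCR DMSO replicate 2, the library that stood apart, and without it the change with AAI in SCR cells was -0.33 and not 0.15, with neither passing (adjusted p 0.370 and 0.853). In siB cells the change was -0.37 (SE 0.19, adjusted p 0.133), and it passed after median-ratio rescaling (-0.48, 0.0297) and with the replicate block (0.0233, range over 15 alternatives 0.0233 to 0.456).

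KLF3, the CtBP-recruiting member, spans 37.3 kb on chromosome 4 (38664197 to 38701517, plus strand). It was measured at 63.2, 32.0 and 48.7 CPM in the SCR DMSO libraries, 44.4, 30.7 and 42.2 with SCR AAI, 45.7, 38.7 and 35.9 with siB DMSO and 39.6, 26.1 and 31.3 with siB AAI. The groups overlapped in every comparison. With AAI the changes were -0.25 in SCR cells (SE 0.30, adjusted p 0.629) and -0.31 in siB cells (SE 0.17, adjusted p 0.144), the latter passing after median-ratio rescaling (0.0309) and without siB AAI replicate 1 (0.0318, range over 15 alternatives 0.0309 to 0.418). An antisense gene, KLF3-AS1, overlaps its span, as 1 unnamed antisense gene each overlaps the spans of KLF4 and KLF11. Overlap of exons was not looked at there either, so whether reads of such a pair were mixed is not known.

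Of the SIN3A-recruiting members, KLF13, known for roles in lymphocytes and heart, fell the most. Its gene spans 109 kb on chromosome 15 (31326835 to 31435665, plus strand), the longest of the 10, and holds the pseudogene UBE2CP4, listed at 0 in each of the 12 libraries. KLF13 was measured at 46.1, 37.8 and 31.0 CPM in the SCR DMSO libraries and at 22.0, 25.6 and 26.3 in those of SCR AAI. The siB libraries gave 35.6, 33.6 and 38.1 CPM under DMSO and 15.6, 13.2 and 14.7 under AAI. The siB AAI libraries were below every other library, and the SCR AAI libraries came next. With AAI, KLF13 fell by 1.24 in siB cells (SE 0.13, adjusted p 7.1e-05), and passed in all 15 alternatives (1.5e-05 to 8.1e-04). For SCR cells the value was -0.60 (SE 0.24, adjusted p 0.158), which passed when all 4 groups were fitted together (0.0234, and up to 0.364 over 15 alternatives). In AAI-treated cells siB minus SCR was -0.72 (SE 0.18, adjusted p 0.0273, and 1.4e-04 with the replicate block), so KLF13 was lower in knockdown cells. That call was lost without SCR AAI replicate 2 (0.0610), SCR AAI replicate 3 (0.107), siB AAI replicate 2 (0.112) or siB AAI replicate 3 (0.0925), while the change stayed between -0.80 and -0.66. In DMSO the difference was -0.08 (95% interval -0.54 to 0.38). The interaction of -0.64 (SE 0.25, adjusted p 0.268, range over 20 alternatives 0.132 to 0.541) did not pass.

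KLF10 and KLF11 are both induced by TGF-β in other cells. KLF10 spans 6.94 kb on chromosome 8 (102648784 to 102655725, minus strand) and was measured at 57.6, 44.8 and 76.6 CPM in the SCR DMSO libraries, 69.3, 72.9 and 101 with SCR AAI, 90.8, 84.5 and 74.6 with siB DMSO and 80.8, 91.5 and 101 with siB AAI. The 2 lowest libraries were of SCR DMSO, and all pairs of groups compared overlapped. Its differences were 0.45 with AAI in SCR cells (95% interval -0.18 to 1.07), 0.13 with AAI in siB cells (-0.15 to 0.41), and 0.50 with siB in DMSO (-0.03 to 1.04), none of which passed. KLF11 spans 11.99 kb on chromosome 2 (10042849 to 10054836, plus strand), lay between 45.3 and 74.8 CPM in all libraries, and had differences from -0.13 to 0.26 over the 4 pairwise comparisons, none of which passed. In siB cells its change with AAI was -0.02 (95% interval -0.25 to 0.22), the narrowest interval of a member in any comparison.

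KLF9, a glucocorticoid-induced member, spans 30.1 kb on chromosome 9 (70384604 to 70414657, minus strand) and was near 1 CPM, at 1.66, 0.537 and 1.29 CPM in the SCR DMSO libraries, 1.38, 1.09 and 0.822 with SCR AAI, 2.05, 0.992 and 1.56 with siB DMSO and 1.89, 1.29 and 1.29 with siB AAI. The groups overlapped throughout. Its largest difference in log2(CPM + 1) was 0.25 (95% interval -0.23 to 0.72), between siB and SCR cells in AAI. On this scale a pseudocount of 1 shrinks any change of a gene at this level. With voom, siB and SCR cells differed by 0.57 in DMSO and by 0.45 in AAI, and neither difference passed.

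Gene length was set beside these changes, because the study sorted genes into spans under 30 kb, 30 to 100 kb and over 100 kb. In SCR cells with AAI the median change was 0.21, 0.25 and -0.09 in these classes, and 3.46%, 1.65% and 6.40% of their genes were lower. In siB cells with AAI the medians were 0.05, 0.18 and -0.04, and 25.0%, 16.8% and 26.2% were lower. KLF7 fell in both and KLF13 fell in siB cells, and they are the members with the longest spans. Of the 6 members under 30 kb, KLF4 rose in both, and KLF2 (-0.54) and KLF6 (-0.65) fell in siB cells, so 2 of the 4 members that fell there were in the shortest class. In the class of 30 to 100 kb, KLF7 was at -1.07 in SCR and -0.997 in siB cells. KLF3, of the same class, was at -0.25 and -0.31 and KLF9 at -0.02 and -0.01, and neither passed. KLF13, over 100 kb, was at -0.60, which did not pass, and -1.24. As KLF7 and KLF13 were named because they fell, their place below the class medians is no separate result. In siB against SCR cells with AAI, genes over 100 kb had a median of 0.13 and 1.12% were lower, and KLF13, of that class, was lower.

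**Figure D5:**
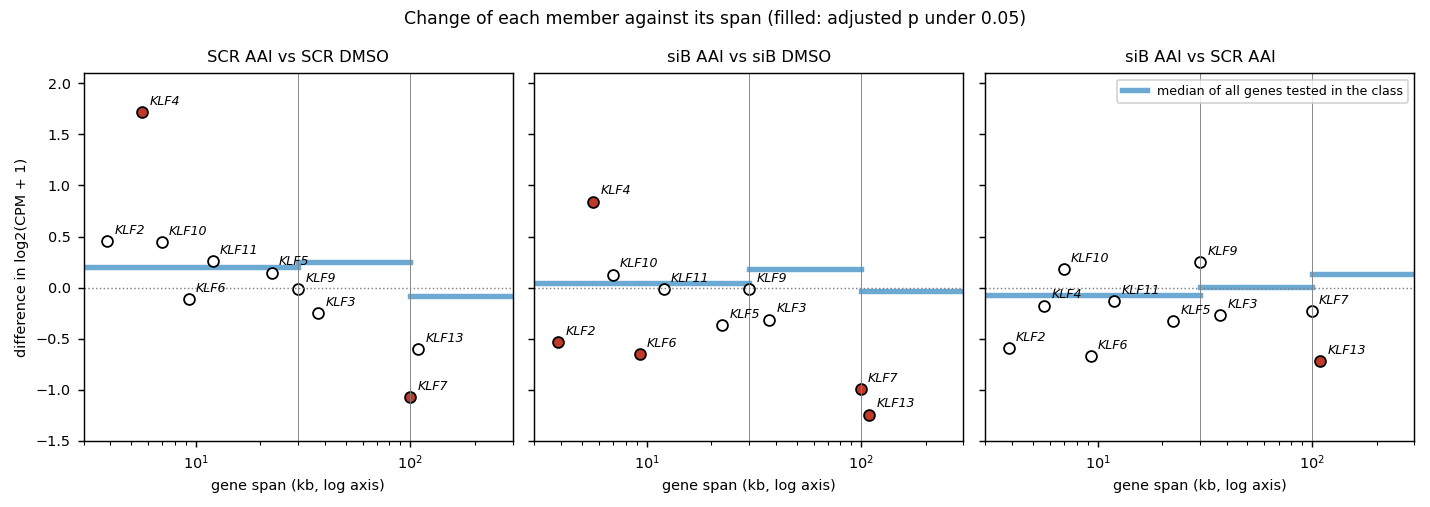
Difference in log2(CPM + 1) of each member against its gene span (kb, log axis) in 3 comparisons, with filled points for an adjusted p under 0.05 and blue bars for the median of all genes tested in each span class (under 30, 30 to 100 and over 100 kb). KLF7, at 99.7 kb, and KLF13, at 109 kb, lie lowest in both panels of AAI against DMSO, and KLF4, at 5.63 kb, lies highest, while KLF2 (3.86 kb) and KLF6 (9.29 kb) also fell in siB cells.

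The other 8 KLF genes of the table were looked at as a list. KLF8, KLF12, KLF15 and KLF16 passed the filter, while KLF1, KLF14, KLF17 and KLF18 did not. KLF12, a CtBP-recruiting repressor with a 448 kb gene, was measured at 19.3, 5.91 and 12.1 CPM in the SCR DMSO libraries, 1.88, 2.54 and 2.86 with SCR AAI, 15.8, 8.21 and 7.97 with siB DMSO and 1.96, 2.31 and 2.84 with siB AAI. It fell by 1.85 in SCR cells (SE 0.40, adjusted p 0.0209) and by 1.74 in siB cells (SE 0.26, adjusted p 4.5e-04). KLF8, another such repressor, rose by 0.53 in siB cells with AAI (SE 0.19, adjusted p 0.0417), from 1.99 ± 0.129 to 3.38 ± 0.838 CPM, a call kept in 4 of 14 alternatives (0.0157 to 0.221). The SCR DMSO libraries held 4.30, 1.03 and 3.71 CPM of KLF8, a range that took in every siB AAI library. In SCR cells its change with AAI was -0.16 (SE 0.38, adjusted p 0.819). The call of KLF12 in SCR cells was kept in 10 of 15 (up to 0.0967 without SCR AAI replicate 1). KLF16 lay between 47.7 and 147 CPM and did not pass in any comparison. Of the 4 tested, 0 passed between siB and SCR cells with AAI. With the replicate block 1 was higher and 0 were lower there, against 15.2% and 13.8% of genes. For AAI in SCR cells the block left 0 higher and 1 lower, against 14.7% and 6.4% of genes. KLF15, known as a podocyte and metabolic regulator, ranged from 6.05 to 60.3 CPM within SCR DMSO and from 14.3 to 115 CPM within SCR AAI, a spread that no group difference exceeded. The 11 KLF pseudogene rows summed to at most 1.36 CPM in any library.

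The SP genes, the nearest relatives of the KLFs, had 7 of 9 members tested. SP6, an epithelial member, rose by 1.79 in SCR cells (SE 0.46, adjusted p 0.0421) and by 2.15 in siB cells (SE 0.28, adjusted p 2.2e-04) and was the 1 SP gene that rose in each. Its call in SCR cells was kept in 7 of 15 alternatives (0.00468 to 0.145). In SCR cells 0 SP genes passed as lower, and in siB cells SP1 (-0.74, SE 0.11, adjusted p 6.1e-04) and SP2 (-0.54, SE 0.14, adjusted p 0.00919) fell. SP1 and SP2 were at -0.38 and -0.16 in SCR cells (adjusted p 0.453 and 0.731). Over all genes 8.98% were higher and 3.36% lower in SCR cells, and 30.4% and 21.8% in siB cells. The median change of the SP genes was 0.50 in SCR cells and -0.18 in siB cells, against 0.18 and 0.10 over all genes. Between siB and SCR cells 0 of 7 passed with either treatment, and with the replicate block 1 was higher and 3 were lower in AAI, against 15.2% and 13.8% of genes. For AAI in SCR cells the block left 1 higher and 0 lower, against 14.7% and 6.4% of genes.

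Of 21 partners and regulators of KLF proteins, all tested, 0 passed with AAI in SCR cells, and in siB cells 1 was higher and 4 were lower, against 30.4% and 21.8% of all genes, with a median of -0.02 against 0.10. MEF2D, a factor that drives KLF2 and KLF4, rose by 0.53 (SE 0.12, adjusted p 0.00436). CTBP1, a corepressor, fell by 0.50 (SE 0.11, adjusted p 0.00369), as did the ERK5 pathway kinase MAP2K5 by 0.66 (SE 0.16, adjusted p 0.00694) and the ubiquitin ligase SIAH1 by 0.41 (SE 0.13, adjusted p 0.0279, up to 0.129 with all 4 groups fitted together). In SCR cells MEF2D was at 0.61 (adjusted p 0.117) and MAP2K5 at -0.93 (0.0620). CTBP1 was at -0.03 (0.940) and SIAH1 at -0.13 (0.796) in SCR cells. Of 16 reported KLF targets, 1 of 15 tested was higher and 0 were lower in SCR cells with AAI, and 3 of 16 were higher and 6 lower in siB cells. The shares over all genes were 8.98% higher and 3.36% lower in SCR cells and 30.4% and 21.8% in siB cells. The medians of the targets were 0.02 and -0.06, against 0.18 and 0.10. ATF3, a stress factor, rose by 1.52 in SCR cells (SE 0.21, adjusted p 0.00317), from 24.0 ± 1.31 to 70.8 ± 8.75 CPM, and by 2.05 in siB cells (SE 0.15, adjusted p 7.7e-06), to 102 ± 18.4 CPM. In siB cells BCKDHB, of branched-chain amino acid breakdown, fell by 1.28 (SE 0.20, adjusted p 5.9e-04), the cytokine TGFB1 by 0.79 (SE 0.17, adjusted p 0.00353) and the collagen gene COL1A1 by 1.37 (SE 0.30, adjusted p 0.00408). Their changes in SCR cells were -1.23, -0.58 and -1.02, which did not pass (adjusted p 0.0670, 0.251 and 0.0738). No gene of either list passed between siB and SCR cells with AAI or with DMSO, nor in the interaction. With the replicate block, 3 partners were lower and 0 higher in siB against SCR cells with AAI, and 3 targets were higher and 2 lower, against 15.2% of genes higher and 13.8% lower. For AAI against DMSO in SCR cells the block gave 0 higher and 1 lower partner. It gave 2 higher and 2 lower targets there, against 14.7% of genes higher and 6.4% lower.

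Likeness between genes was measured as Pearson's r of log2(CPM + 1) over the 12 libraries, which share groups, depth and treatment, so it is a description. Among 11578 genes with a mean of at least 5 CPM, KLF6 was most like a gene whose name was turned into a date in the table (0.943). The rest of the 5 nearest genes were CREB3L2 (0.942), NRG1 (0.939), NRDE2 (0.922) and REPS1 (0.910). Between members, KLF7 and KLF13 were the most alike (0.893), KLF3 with KLF5 (0.808) and KLF10 with KLF11 (0.808) followed, and KLF4 ran most against KLF7 (-0.907). With POLR2A the values of the members ran from -0.38 (KLF9) to 0.47 (KLF4), and that of KLF6 was 0.14.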

How the data were processed

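The methods of the study state that the authors mapped the paired reads to hg38 and quantified them against a UCSC annotation through BioJupies; the aligner and the use of strand are not given in the sources used here. The authors deposited log10 values, log10 of CPM plus 1, for 35238 genes. These were turned back to CPM, which stepped in whole reads for 100% of values (within 0.1 read). Groups came from sample titles, since the treatment label is DMSO throughout. As the unit was a log scale, no count model was the main test.

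Pairwise limma 3.58.1 fits (R 4.3.3, eBayes with trend, 2-sided) used log2(CPM + 1) of genes with at least 1 CPM in at least 3 libraries fitted, with Benjamini-Hochberg adjustment over all genes tested. The interaction used all 12 libraries. The code was tested on simulated data. The members and the 4 gene lists were chosen with earlier results of these data known. Named genes were all members, POLR2A, up to 4 genes with the lowest adjusted p per list and comparison, every other KLF gene past the filter, and the 5 genes nearest to KLF6. Positions, spans and transcript lengths are those of GENCODE release 44 (hg38), found by symbol for 91.2% to 92.6% of genes tested, and figures from Python 3 and matplotlib.

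The member changes, and after the data were seen also POLR2A, the named genes of the lists and the list counts, were repeated without the filter or with a mean of 5 CPM in its place, with 0.1 as the pseudocount, with size factors by median ratio, with CPM without the transcript AC010970.2, with voom on recovered reads, without the trend, with a replicate block, with all 4 groups fitted together, and without each library in turn. Deviations from the group means of same-numbered libraries correlated by 0.338 to 0.473 between SCR AAI and SCR DMSO and by 0.292 to 0.614 between siB AAI and SCR AAI, every pair over 0.1. The numbers were therefore taken as pairs there, from the data and not from the labels. The main fits have no block even so, and the counts with the replicate number as a block are given beside theirs.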

Additional observations from a re-analysis of the deposited data

How the results depend on the processing

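Over all alternatives, 732 of the single-member changes kept their direction and their side of the threshold, 15 lost the call, 10 gained it and 37 changed sign, all 37 in changes that did not pass. Without 1 replicate, the number of members passing ran from 1 to 2 with AAI in SCR cells, from 4 to 6 with AAI in siB cells, from 0 to 3 between siB and SCR cells with AAI and from 0 to 1 for the interaction. With all 4 groups in the fit, 3 members passed with AAI in siB cells (5 in the pairwise fit), and with the replicate block 3 passed between siB and SCR cells with AAI (1 without it). In siB AAI against siB DMSO and in siB DMSO against SCR DMSO, same-numbered libraries correlated by 0.0259 to 0.210 and by -0.193 to 0.726, so not every pair was over 0.1 and the numbers were not taken as pairs there, although 9 of 12 libraries matched their own number best over all groups. There the block moved the passing members from 5 to 6 (KLF5 added, adjusted p 0.0233) and left them at 0, and between siB and SCR cells with AAI it added KLF2 and KLF6, and it changed no other call of a member. Over all genes the number called ran from 769 to 4094 with AAI in SCR cells (1755 in the pairwise fit, 2997 with the block), from 213 to 4325 between siB and SCR cells with AAI (1387, and 4325 with the block), from 0 to 6 in DMSO (0) and from 0 to 1010 for the interaction (247, and 389 with the block). The changes that changed sign were these. With median-ratio size factors KLF5 was at -0.0504 (AAI in SCR cells) and KLF3 at 0.0255 (interaction). KLF9 with AAI in SCR cells was at 0.0188 with a pseudocount of 0.1, 0.0013 without AC010970.2 and 0.0946 with voom, and its interaction at -0.0258, -0.0121 and -0.1462. Leaving out 1 library gave these ranges. With AAI in SCR cells they were -0.3334 to 0.4572 for KLF5, -0.324 to 0.1581 for KLF6 and -0.2439 to 0.1526 for KLF9. With AAI in siB cells they were -0.1758 to 0.132 for KLF9 and -0.0467 to 0.0207 for KLF11. With siB in DMSO they were -0.4659 to 0.0147 for KLF3, -0.2947 to 0.4959 for KLF5, -0.0089 to 0.2838 for KLF11 and -0.2202 to 0.0598 for KLF13. For the interaction they were -0.2837 to 0.197 for KLF3, -0.0482 to 0.2015 for KLF7 and -0.1654 to 0.2311 for KLF9. Of 16 calls of named genes in the lists, repeated the same way after the data were seen, 11 passed in all alternatives and 5 lost the call in some (KLF12 and SP6 in SCR cells, KLF8, SP2 and SIAH1 in siB cells), with 0 changes of sign. A pseudocount of 1 and a depth near 1 CPM limit what can be said of KLF9, and 3 libraries a group leave wide intervals for KLF5 and KLF6. The cause of these shifts was not tested.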
